A study of Mus musculus with 62 samples.

Results

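Gonadal fat was compared with inguinal fat in lean mice that carry an intact *Fam13a* gene. The comparison takes the 8 RNA sequencing libraries labelled as white fat of wild type (WT) males on chow, 4 from visceral adipose tissue (VAT) and 4 from subcutaneous adipose tissue (SAT), out of 46 fat libraries and 62 libraries in all. In this study VAT is the fat pad that lies along the epididymis and SAT is the inguinal pad under the skin of the flank. The rest of the series holds fat of mice with a whole-body deletion in *Fam13a* (KO), of mice on a high-fat diet (HFD), of females on HFD, and liver. All mice had a C57BL/6 background, the WT males were controls of the KO line, and each library was made from a piece of dissected tissue, so it holds RNA of every cell type in that piece. The age at which fat for these chow libraries was taken is not given in the sources used here. Replicates are separate libraries of a group, and the p-values measure the spread between them.

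White fat stores triglyceride in adipocytes, which sit in a bed of progenitor cells, capillaries, nerve fibres and macrophages. Depots differ in where they arise in the embryo and keep a pattern of developmental transcription factors, such as Hox genes, that marks their position along the body. Visceral pads are covered by mesothelium, a sheet of epithelial cells that lines the body cavity, and inguinal fat is not. The inguinal pad surrounds a lymph node, and the gonadal pad of males adheres to the epididymis, a duct that matures sperm. Both neighbours can be included when a pad is cut out.

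The 8 libraries held between 8662690 and 24022811 reads counted on genes. The nuclear ribosomal RNA gene took between 0.024% and 25.7% of them, with high and low libraries in both depots. Log2 values correlated at 0.934 to 0.977 (Pearson's r across genes) within VAT, at 0.946 to 0.979 within SAT and at 0.823 to 0.919 between depots. The first principal component took 65.5% of the variance and separated the depots, and the second, with 12.7%, set VAT replicate 2 apart from the other 7 libraries. The labels put the 4 VAT libraries in another sequencing lane than the 4 SAT libraries, so lane and depot cannot be told apart. The adipocyte genes *Adipoq* (adiponectin) and *Lep* (leptin) were high in every library, *Adipoq* between 670 and 2284 CPM (counts scaled to a library of 1000000), and they define the tissue named in the labels.

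Lymph node genes were high in all 4 SAT libraries. The summed level of 17 B cell genes, as CPM of each library's deposited total, was 1981, 2050, 3005 and 779 in SAT replicates 1 to 4 and 164, 150, 141 and 177 in VAT. Levels of single genes are CPM with library sizes adjusted by edgeR's TMM. *Glycam1*, a mucin-like ligand made by the high endothelial venules of lymph nodes, stood at 25, 17, 18.6 and 2.93 CPM in SAT and at 0 in every VAT library. The levels did not overlap for either, and SAT replicate 4 had the lowest of the SAT libraries. A lymph node score, the mean log2 CPM of B and T cell genes, lay between 4.04 and 5.90 in these SAT libraries. In the other 19 SAT libraries of the series it passed 4 only in 1 library each of KO males on chow (5.51), WT males on HFD (4.25) and KO females on HFD (5.06).

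Epididymis genes were read in VAT, mainly in replicate 2. The counts summed over 57 epididymis genes were 3397, 374729, 60 and 562 in VAT replicates 1 to 4. *Gpx5*, an antioxidant enzyme that the epididymis secretes, had 311, 61681, 4 and 2 counts in VAT and none in SAT, which allows up to 3 counts in each library. *Lcn5*, an epididymal lipocalin, had 11, 277, 5 and 142 counts in VAT and 0, 0, 0 and 3 in SAT. Replicate 2 was the highest for all of these, and for *Lcn5* replicate 4 came next. A set of 13 testis genes had only 98, 136, 7 and 10 counts in VAT. Counting limits and intervals given here and below cover counting error only.

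**Figure D1:**
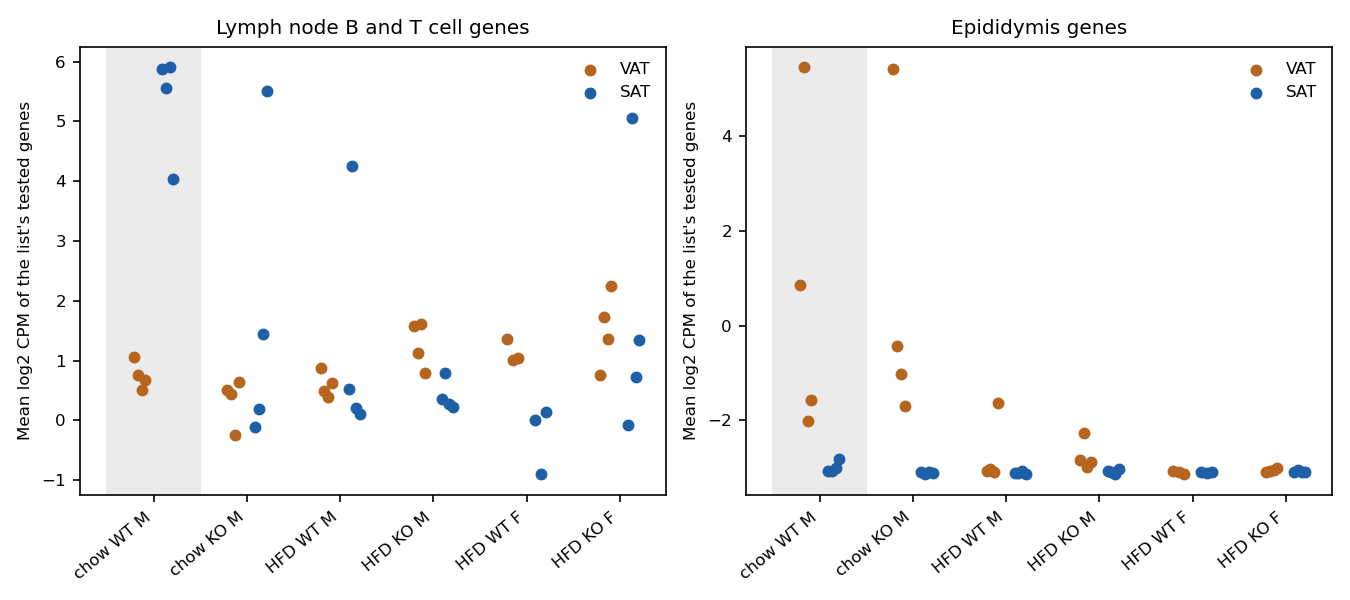
Mean log2 CPM of lymph node B and T cell genes (left) and of epididymis genes (right) in each of the 46 fat libraries, 1 point per library, by group (M, males, F, females), with VAT in brown, SAT in blue and WT males on chow shaded. All 4 SAT libraries of WT males on chow sit at 4.04 or above on the left, and VAT replicate 2 (5.45) and a VAT library of KO males on chow (5.41) stand above all others on the right.

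Depot differences were widespread. Of 15604 genes tested with edgeR's quasi-likelihood test, 7180 passed a false discovery rate (FDR) of 10%, the threshold of the study. 3687 (23.6%) were higher in VAT, and in 2593 of all genes tested (16.6%) every VAT library was above every SAT library. 3493 (22.4%) were higher in SAT, and in 2757 (17.7%) every SAT library was above every VAT library. The shares of 23.6% and 22.4% are the background for each count of listed genes called in these 8 libraries. The median log2 difference (VAT minus SAT) over all tested genes was 0.05. In bulk tissue, fewer cells of a type and less RNA per cell cannot be told apart.

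Genes were then set apart by how they moved with the neighbouring tissues in libraries that the comparison does not use. Across the other 19 SAT libraries, 4010 of 18133 genes (22.1%) rose with the lymph node score and 2951 (16.3%) fell. Of the 3493 genes higher in SAT, 2470 (70.7%) rose with that score and 927 (26.5%) had no slope called. Of the 3687 genes higher in VAT, 1696 (46%) fell with it and 1710 (46.4%) had no slope called, a class that also takes in genes not tested for a slope. These slopes lean on SAT replicate 4 of KO males on chow, the library with the highest score among the 19. Without it, 2014 genes rose with the score. Of the 2470 genes, 1499 (60.7%, against 11.2% of all genes tested) still rose, and of the 1696, 462 (27.2%, against 5.17%) still fell. A fit of all 46 fat libraries in their groups, with both scores as covariates, called 1450 of 19873 genes (7.30%) between the depots of WT males on chow, 814 higher in VAT and 636 higher in SAT.

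Across the other 12 male VAT libraries, 1276 of 16626 genes (7.67%) rose with the epididymis score, and 290 (7.87%) of the genes higher in VAT were among them. That slope rests on VAT replicate 1 of KO males on chow: without it, edgeR called 0 genes, with 695 at an unadjusted p under 0.05. In the comparison itself, leaving out VAT replicate 2 kept 3258 of the 3687 genes higher in VAT, 3136 of the 3493 higher in SAT and 221 of the 290 (76.2%, against 23.8% of all genes tested then).

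**Figure D2:**
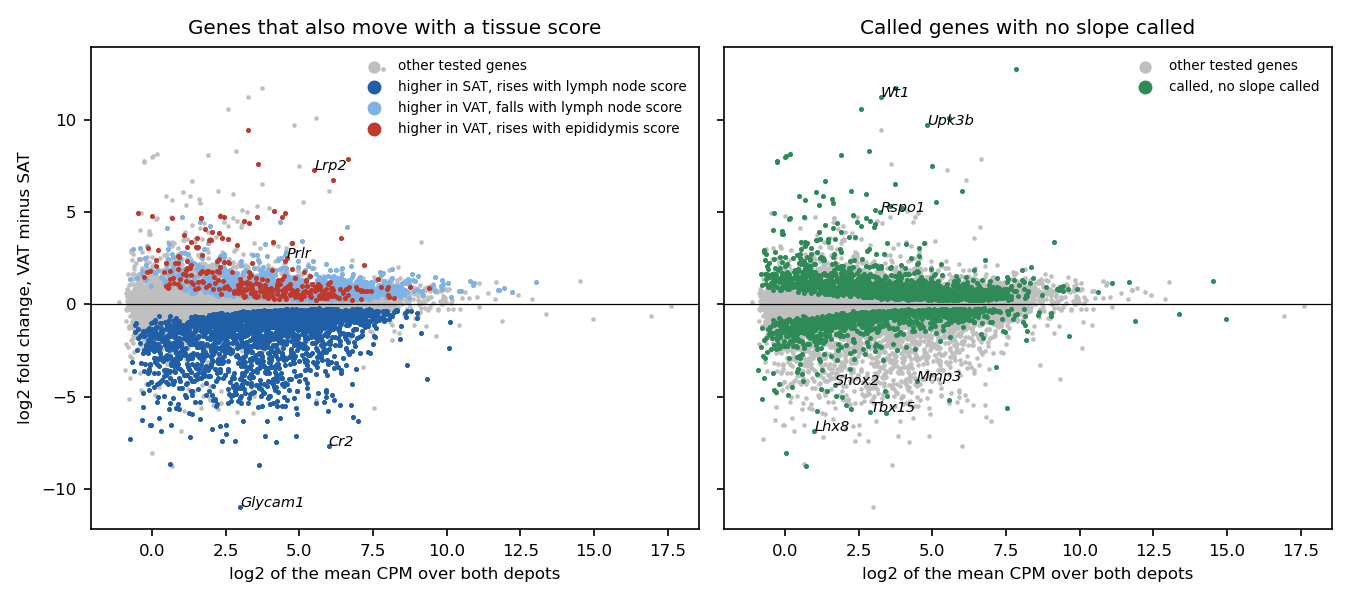
Log2 difference between depots (VAT minus SAT, 4 libraries each) against log2 of the mean CPM, 1 point per tested gene. Left, called genes that also move with the lymph node or epididymis score in other libraries are coloured, and *Glycam1* and *Cr2* lie far below 0. Right, the called genes with no slope called include *Lhx8* (-6.90) and *Wt1* (11.27), and the highest green point is the epididymis gene *Adam7* (12.78), which was not tested for either slope.

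Large depot differences were found in VAT genes of the mesothelium. Of 20 mesothelial genes, 19 were higher in VAT and none in SAT, against 23.6% and 22.4% of all genes tested. Their median difference was 4.65 on the log2 scale. Of the 20, 4 fell and 1 rose with the lymph node score, and 2 rose with the epididymis score. The lymph node slope was fitted in SAT libraries, where *Upk3b* was at most 0.243 CPM and *Wt1* at most 0.121. It therefore cannot tell how these 2 genes move with lymph node content. *Upk3b* encodes a uroplakin of the mesothelial surface and lies on chromosome 5 (GRCm38, chr5:136038496-136046487, plus strand). It stood at 40.3, 35.1, 52.5 and 99.1 CPM in VAT and at 0, 0, 0.0434 and 0.202 CPM in SAT. The depots did not overlap, the log2 difference was 9.74 (SE 0.63, adjusted p = 4.4e-05), and the pooled level was 953 times that of SAT (95% interval 326 to 4621). *Wt1*, a zinc-finger transcription factor of the mesothelium, ranged from 13.1 to 29.5 CPM in VAT and had no read in SAT, a ratio of at least 312-fold. *Bnc1*, an epithelial zinc-finger factor, also had no read in SAT (at least 207-fold). *Msln* (mesothelin) was between 16.2 and 44.9 CPM in VAT and at most 0.708 in SAT. *Muc16*, a large membrane mucin, was between 57.3 and 159 CPM in VAT and at most 0.13 in SAT. VAT replicate 4 was the highest library for each of these genes.

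The promoter of *Upk3b* is shown as that of a mesothelial gene that was nearly without reads in SAT. The sequence below is the 250 bases before its start in RefSeq (GRCm38.p6, chr5:136038246-136038495, plus strand), read 5′ to 3′, and the capitals mark a match to CATTCC, the reverse complement of GGAATG, the core motif of TEAD factors.

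Upk3b: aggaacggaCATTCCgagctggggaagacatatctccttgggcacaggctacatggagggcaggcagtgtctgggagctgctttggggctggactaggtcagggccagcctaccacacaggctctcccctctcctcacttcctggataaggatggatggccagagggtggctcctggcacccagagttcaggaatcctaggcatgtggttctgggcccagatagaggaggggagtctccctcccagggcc

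GGAATG was found on either strand in the same window of 4 of the 13 mesothelial genes with a promoter sequence (30.8%), in 1 of 10 B cell genes and in 3414 of 27025 promoters in all (12.6%). A match in these letters is a description of the window and not a binding site.

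Secreted factors made a further group of VAT genes in WT males on chow. Of 39 adipokines and other secreted factors, 21 were higher in VAT and 3 in SAT (median 0.93), against 23.6% and 22.4% of all genes tested. 21 of the 39 fell with the lymph node score. With both scores as covariates 7 were higher in VAT and 0 in SAT. The counts were 2 and 1 in KO males on chow (median 0.05) and 6 and 10 in WT males on HFD (median -0.27). In KO males on HFD they were 10 and 17 (median -0.43), and in females on HFD 4 and 3 in WT and 5 and 4 in KO. *Rspo1*, a secreted amplifier of Wnt signals that mesothelium also makes, was at 14.8, 19.7, 15.5 and 22.8 CPM in VAT and between 0.3 and 0.72 in SAT, with a log2 difference of 5.03 (SE 0.28, adjusted p = 3.6e-05). *Wnt2b*, a Wnt ligand, was at 13.3, 10.9, 18.1 and 22.1 CPM in VAT and between 0.347 and 0.708 in SAT (5.09, SE 0.34, adjusted p = 4.4e-05). Neither gene had a slope called on either score. The lymph node slope was fitted in SAT libraries, and at SAT levels this low it can tell little. *Nog*, which binds and blocks bone morphogenetic proteins (BMPs), reached 1.4 to 3.99 CPM in VAT and at most 0.304 in SAT. Its ligand *Bmp4* was higher in VAT by 2.76 (SE 0.39). Over 30 Wnt and BMP ligands and antagonists, 15 were higher in VAT and 7 in SAT, against 23.6% and 22.4% of all genes tested. With both scores as covariates the counts were 8 and 3. They were 3 and 1 in KO males on chow (median 0.17) and 6 and 6 in WT males on HFD (median -0.23). In KO males on HFD they were 8 and 6 (median 0.11), and in females on HFD 4 and 4 in WT and 4 and 3 in KO.

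*Agt*, the precursor of angiotensin, was at 226, 119, 276 and 120 CPM in VAT and between 7.04 and 13.3 in SAT, and the log2 difference was 4.20 (SE 0.35). *Fgf1*, a growth factor that fat induces on feeding, was between 48.2 and 84.2 CPM in VAT and between 3.91 and 7.44 in SAT (3.41, SE 0.24). VAT was above SAT in every library for both genes, and both fell with the lymph node score in the other SAT libraries. *Myrf*, a membrane-bound transcription factor, *Pkhd1l1*, a large membrane protein, and *Fras1*, a protein of basement membranes, were higher in VAT by 5.98 (SE 0.40), 6.16 (SE 0.46) and 4.33 (SE 0.38). None of them had a slope called on either score. *Myrf* and *Fras1* averaged 0.228 and 0.817 CPM in SAT, levels at which a slope fitted in SAT libraries can tell little. *Ltbp4*, which holds TGF-beta in the matrix, and the annexin *Anxa2* differed less, by 1.53 (SE 0.13) and 1.61 (SE 0.15), without overlap, and both fell with the lymph node score. By the same rule, 112 genes qualified in VAT and 39 in SAT, and 12 of each with the smallest p are described here.

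On the SAT side, developmental transcription factors were among the genes with no slope called. *Tbx15*, a T-box transcription factor (GRCm38, chr3:99240381-99354259, plus strand), stood at 13.8, 13.4, 11.6 and 19.7 CPM in SAT and at 0.211, 0.417, 0.154 and 0.139 CPM in VAT, with a log2 difference of -5.83 (SE 0.35, adjusted p = 4.2e-05). *Lhx8*, a LIM homeobox factor also used as a marker of brown fat cells, was at 3, 4.5, 3.52 and 4.76 CPM in SAT, against 2 reads in all VAT libraries together. The pooled ratio of SAT to VAT was 151 (95% interval 41.2 to 1255). *Shox2*, a homeobox factor of the proximal limb, was between 4.78 and 7.49 CPM in SAT and at most 0.511 in VAT (-4.37, SE 0.42). None of the 3 genes overlapped between depots, and each was low in all 4 VAT libraries. For *Tbx15* and *Shox2* the rule required the lack of overlap. Over 36 developmental transcription factors other than Hox genes, 18 were higher in VAT and 6 in SAT (median 0.32). The shares of all genes tested were 23.6% and 22.4%. Without VAT replicate 2, 16 of 37 were higher in VAT and 10 in SAT. In other males these factors leaned to SAT. The calls were 5 in VAT and 7 in SAT in KO males on chow (median -0.07), 4 and 14 in WT males on HFD (median -0.88), and 9 and 23 in KO males on HFD (median -0.61). In females on HFD they were 4 and 8 in WT and 6 and 5 in KO. *Foxc1*, a forkhead factor of mesenchyme, was a VAT example in WT males on chow, at 5.5 to 7.67 CPM against 0.7 to 1.32 in SAT (2.82, SE 0.25). Its depot difference changed by -3.02 (SE 0.45) from chow to HFD in WT males.

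Stromal and matrix genes followed. *Mmp3*, a matrix metalloprotease, was at 30.9, 36.1, 48 and 51.8 CPM in SAT and at 0.842, 1.52, 4.45 and 3.44 CPM in VAT (-4.15, SE 0.46, adjusted p = 0.00029). *Pi16*, a marker of early progenitors in the fat interstitium, was between 39.9 and 83.7 CPM in SAT and between 11.6 and 18.1 in VAT (-2.01, SE 0.24). *Fap*, a membrane protease of fibroblasts, was between 25.6 and 43.5 CPM in SAT and between 9.71 and 12 in VAT (-1.45, SE 0.19). Every SAT library was above every VAT library for these 3 genes, which had no slope called. The rule that chose them required the lack of overlap and of a rising slope. Of 27 progenitor genes, 7 were higher in SAT and 5 in VAT, or 8 and 8 without VAT replicate 2, which is near the shares of all genes tested (22.4% in SAT and 23.6% in VAT). *Wnt2* was a SAT example at 1.44 to 3.74 CPM against 0.307 to 0.674 in VAT, and *Fmo2* a VAT example at 104 to 182 CPM against 24.2 to 47.0 in SAT. *Cd55* and *Thy1*, which lymphocytes also express, were higher in SAT (-2.07 and -2.32) and rose with the lymph node score.

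Of 48 extracellular matrix genes, 13 were higher in VAT and 12 in SAT, also near the 23.6% and 22.4% of all genes tested. *Mmp2*, a gelatinase, was higher in SAT at 137 to 226 CPM against 32.5 to 62.3 in VAT. The collagen VI chain gene *Col6a5* was higher in VAT, at 59, 172, 139 and 264 CPM against 9.72 to 16.2 in SAT (3.61, SE 0.43), and so was *Col6a6* (1.90, SE 0.19). *Fmod*, a small proteoglycan that binds collagen, was between 27.2 and 35.8 CPM in VAT and at most 8.38 in SAT. 27 of the 48 genes fell with the lymph node score.

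Further SAT genes with no slope were *Il1r2*, the decoy receptor for interleukin-1, at 5.76 to 9.01 CPM against at most 0.418 in VAT (-5.04, SE 0.39), the GDNF family receptor *Gfra2* (-2.25, SE 0.24) and the potassium channel gene *Kcnq5* (-2.48, SE 0.27). *Ddx60*, an interferon-induced helicase (-1.55, SE 0.13), *Itm2a* (-2.44, SE 0.32) and the phosphodiesterase gene *Pde11a* (-1.43, SE 0.20) were also higher in SAT. None of these 6 genes overlapped between depots or rose with a score, which the rule required.

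**Figure D3:**
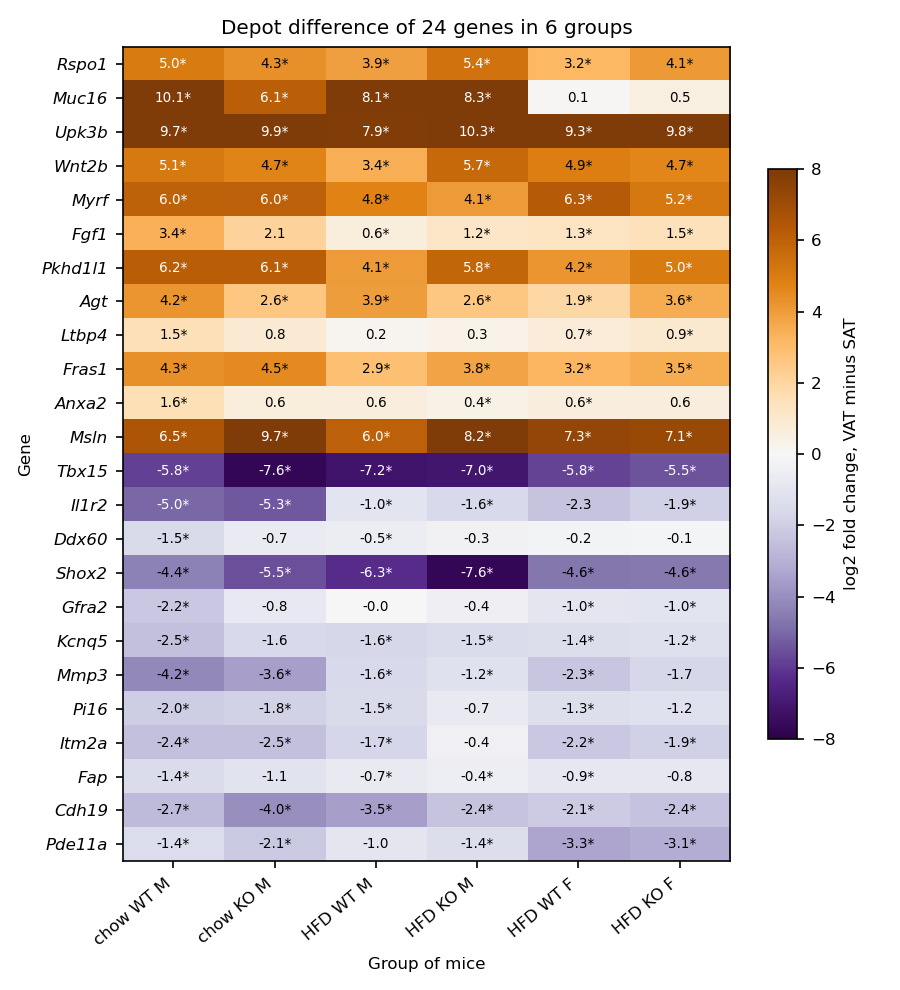
Log2 difference between depots (VAT minus SAT) of the 12 VAT genes and the 12 SAT genes chosen by the rule, in 6 groups of mice (M, males, F, females), with the value in each cell and a star where the FDR was under 10% in that group. The direction is the same in every group because the rule required it. *Tbx15* and *Shox2* passed in all 6 groups, and *Muc16* was near 0 in females.

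Genes of peripheral nerve were higher in SAT. Of 8 nerve and Schwann cell genes, 5 were higher in SAT and 1 in VAT (median -1.01), against 22.4% and 23.6% of all genes tested. *Cdh19*, a cadherin of Schwann cells, was between 5.34 and 16.4 CPM in SAT and between 1.44 and 2 in VAT (-2.69, SE 0.36). SAT replicate 4, with the lowest lymph node score, had the highest level, and SAT replicate 3 the lowest of the SAT libraries. The sodium channel gene *Scn7a* was the exception, at 370 to 590 CPM in VAT against 143 to 422 in SAT (0.77, SE 0.31).

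Of 25 Hox genes tested, 14 were higher in VAT and 3 in SAT (median 0.96), against 23.6% and 22.4% of all genes tested. No Hox gene was called higher in VAT in the other males. Of all genes tested, 0.749% were higher in VAT in KO males on chow, 10.8% in WT and 20.1% in KO males on HFD. Hox genes higher in SAT numbered 3 in KO males on chow (median 0.34) and 9 in WT males on HFD (median -0.85). In KO males on HFD they numbered 15 (median -0.67). In WT females on HFD 0 were higher in VAT and 1 in SAT, and in KO females 3 and 1. The 3 SAT genes of WT males on chow belong to the posterior groups, but other posterior genes did not share their direction or were not called. *Hoxc9* had a difference of -0.58 (SE 0.34, adjusted p = 0.21) and *Hoxd9* one of 0.94 (SE 0.45, adjusted p = 0.13), and *Hoxb9* was higher in VAT (4.08, SE 1.22, adjusted p = 0.029) but could not be tested without VAT replicate 2. *Hoxc10* (GRCm38, chr15:102966796-102971893, plus strand) was at 3.12, 3.5, 3.69 and 6.17 CPM in SAT and at 0, 0.0759, 0.307 and 0.0465 CPM in VAT (-5.77, SE 0.65, adjusted p = 0.00031). *Hoxa10* was at 3.24 to 5.16 CPM in SAT and at 0.0421, 1.25, 0.154 and 0.279 in VAT (-3.07, SE 0.71). *Hoxa9* was at 4.65 to 11.1 CPM in SAT and at 0.421, 2.62, 1.84 and 1.12 in VAT (-2.21, SE 0.51). All 3 were lower in every VAT library, and VAT replicate 2 was the highest VAT library for *Hoxa10* and *Hoxa9*.

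Among anterior and central Hox genes, *Hoxa7* was at 10.6 to 17.8 CPM in VAT and 4.43 to 7.79 in SAT (1.22, SE 0.23). *Hoxc4* (1.56, SE 0.32), *Hoxa4* (1.77, SE 0.39) and *Hoxa5* (1.14, SE 0.25) were likewise higher in every VAT library, with no slope called. The Hoxb genes were different, because VAT replicate 2 stood apart. *Hoxb9* was at 0.927, 23.2, 1.38 and 1.02 CPM in VAT and at most 0.6 in SAT. *Hoxb7* was at 1.52, 21.9, 1.38 and 2.09 CPM in VAT and between 1.08 and 2.4 in SAT, where its difference of 1.93 (SE 0.90, adjusted p = 0.12) became -0.08 without that library. *Hoxb9*, *Hoxb7* and *Hoxb6* rose with the epididymis score in other VAT libraries. *Hoxd8* showed a smaller excess in replicate 2, at 50.6 CPM against 16.1 to 21.8 in the other VAT libraries and 6.36 to 8.6 in SAT, and it differed by 1.35 (SE 0.17) without it. Without VAT replicate 2, 11 of 24 tested Hox genes were higher in VAT and 3 in SAT. Many Hox genes overlap RNAs on the opposite strand, and which strand the counts keep is not given in the sources used here.

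**Figure D4:**
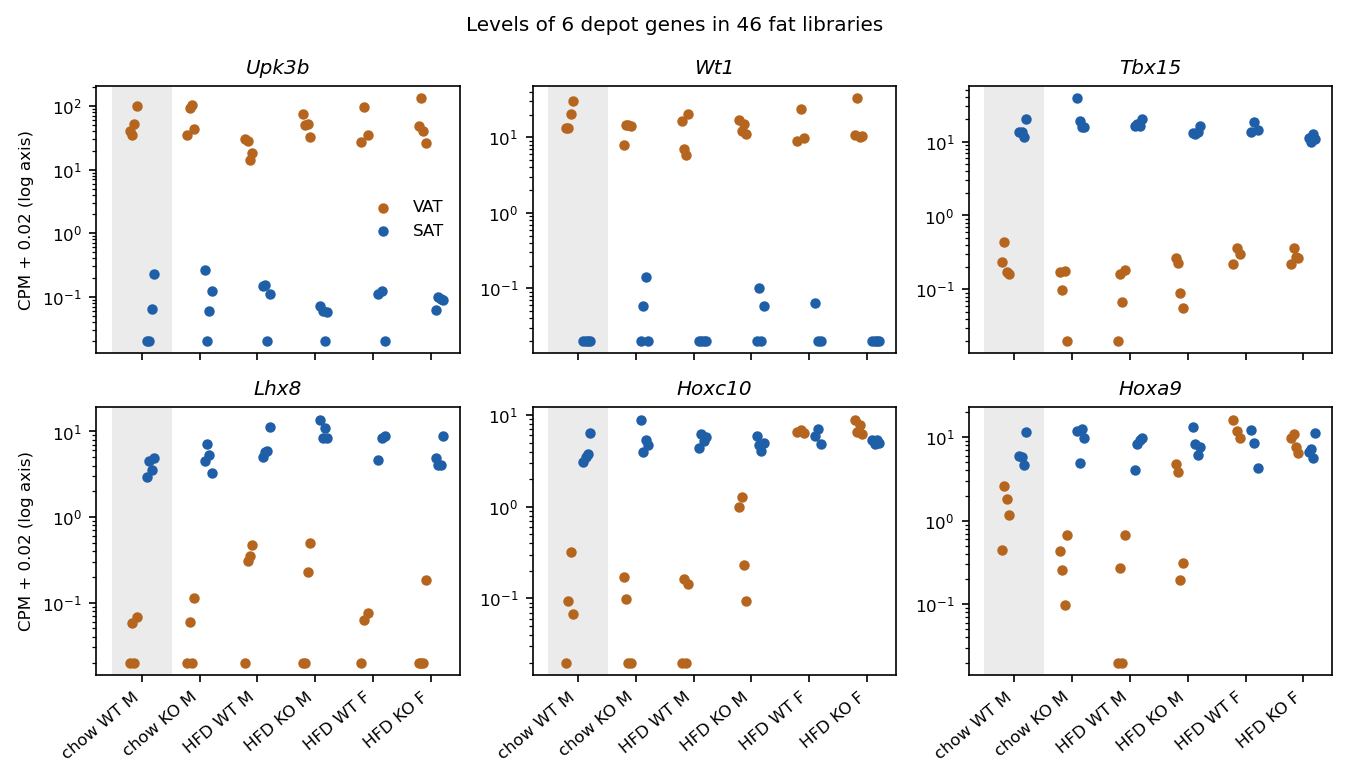
Levels of 6 depot genes in each of the 46 fat libraries (CPM plus 0.02 on a log axis, 1 point per library, scaled over all 46 libraries), by group, with VAT in brown, SAT in blue and WT males on chow shaded. *Upk3b*, *Wt1*, *Tbx15* and *Lhx8* keep the depots apart in all 6 groups. *Hoxc10* is at most 1.26 CPM in male VAT and at 6.16 to 8.74 in female VAT. *Hoxa9* is at 6.36 to 16.2 CPM in female VAT and reaches 4.77 in VAT of KO males on HFD, within the range of male SAT.

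Adipocyte genes tended to be higher in VAT, though with a wide spread among its libraries. Of 24 adipocyte genes, 16 were higher in VAT and none in SAT (median 0.76), against 23.6% and 22.4% of all genes tested. 14 of the 24 fell with the lymph node score. Without VAT replicate 2, 20 were higher in VAT. The median of the list was -0.27 in KO males on chow and -0.60 in WT males on HFD. *Lep* was at 315, 302, 237 and 247 CPM in VAT and at 88, 202, 50.1 and 104 CPM in SAT (1.31, SE 0.36, adjusted p = 0.020), and with both scores as covariates its difference was -0.12. *Adrb3*, the adrenergic receptor that drives lipolysis, was at 635, 219, 574 and 239 CPM in VAT and between 91.0 and 144 in SAT (1.86, SE 0.37). *Car3*, a carbonic anhydrase abundant in adipocytes, was at 16557, 6931, 14973 and 8138 CPM in VAT and between 3823 and 5708 in SAT (1.24, SE 0.33). VAT was above SAT without overlap for these 3 genes, and for *Adrb3* and *Car3* VAT replicates 1 and 3 were high and replicates 2 and 4 lower. *Plin4*, which coats lipid droplets, and *Cidec*, which helps them fuse, were higher in VAT by 1.21 (SE 0.32) and 1.17 (SE 0.32), with overlap for *Cidec*.

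Genes of fat synthesis and of fat burning moved the same way. In de novo lipogenesis, 12 of 19 genes were higher in VAT and none in SAT (median 0.88), and in fatty acid oxidation 13 of 23 and none (median 0.50). The shares of all genes tested were 23.6% and 22.4%. Of the 19, 5 fell with the lymph node score and 6 rose with the epididymis score, and of the 23, 7 fell with the lymph node score. With both scores as covariates, 3 lipogenesis genes were higher in VAT and 1 in SAT, and 4 oxidation genes were higher in VAT. In KO males on chow no gene of either list was called (medians 0.13 and -0.19). There only 0.749% of all genes tested were higher in VAT and 0.415% in SAT. *Acacb*, the acetyl-CoA carboxylase that controls fatty acid entry into mitochondria, was at 621, 213, 542 and 374 CPM in VAT and between 145 and 234 in SAT (1.13, SE 0.31). *Acaa2*, a thiolase of mitochondrial oxidation, was between 63.3 and 77.2 CPM in VAT and between 36.3 and 48.3 in SAT (0.68, SE 0.13). *Hadh*, of the same pathway, was higher by 0.84 (SE 0.22). *Fads2*, a fatty acid desaturase, was a further case of replicate 2: it was at 7.5, 47.8, 7.83 and 5.34 CPM in VAT and between 2.73 and 4.7 in SAT, with a difference of 2.25 (SE 0.70) that came to 0.92 (SE 0.25) without that library and to -0.15 with both scores as covariates.

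Of 24 retinoid genes, 12 were higher in VAT and 3 in SAT (median 0.60). 10 of the 24 fell with the lymph node score, and with both scores as covariates 2 were higher in VAT and 1 in SAT. The counts were 2 and 0 in KO males on chow (median -0.09) and 3 and 4 in WT males on HFD (median -0.25). In KO males on HFD they were 4 and 10 (median -0.10), and in females on HFD 2 and 3 in WT and 1 and 3 in KO. The retinaldehyde dehydrogenase genes *Aldh1a1*, at 201, 372, 164 and 223 CPM in VAT and 27.5 to 93.0 in SAT, and *Aldh1a2*, at 6.95 to 13.6 CPM in VAT and 0.72 to 2.83 in SAT, make retinoic acid. *Cyp26b1*, which degrades it, was higher in SAT, at 17, 21.3, 29.6 and 47.5 CPM against 5.05 to 6.4 in VAT (-2.34, SE 0.30). The alcohol dehydrogenase gene *Adh7* was also higher in SAT (-3.55, SE 0.45). In the steroid list, 5 of 15 genes were higher in VAT and 2 in SAT, among them *Cyp11a1*, which begins steroid synthesis (-2.11, SE 0.49). Without VAT replicate 2 the counts were 4 and 1. With all 8 libraries, 23.6% of all genes tested were higher in VAT and 22.4% in SAT.

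Of 18 thermogenic and beige fat genes, 6 were higher in SAT and 4 in VAT (median 0.02), against 22.4% and 23.6% of all genes tested. *Ucp1*, the uncoupling protein of brown and beige fat, was too low to be tested. It had 2, 15, 3 and 22 reads in SAT and 1, 5, 0 and 18 in VAT, which does not separate the depots at this depth. *Cox8b*, a respiratory chain subunit of beige fat, was at 6.36, 7.7, 4.65 and 12.3 CPM in SAT and 1.14 to 2.74 in VAT (-1.87, SE 0.37). *Cidea*, a lipid droplet protein of the same cells, overlapped between depots (-1.64, SE 0.56, adjusted p = 0.046). *Tmem26* and *Tnfrsf9*, which are used as beige markers, were higher in SAT (-3.22 and -4.55) and rose with the lymph node score in other SAT libraries.

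Macrophage genes did not favour VAT in these lean mice. Of 20, 8 were higher in SAT and none in VAT (median -0.60), against 22.4% and 23.6% of all genes tested. With both scores as covariates 1 was higher in SAT and 0 in VAT. In KO males on chow, with few calls among all genes, 0 were called in either depot (median -0.04). *Csf1r*, the receptor that macrophages need to survive, was at 113, 99.9, 151 and 116 CPM in VAT and at 151, 203, 239 and 235 CPM in SAT (-0.79, SE 0.18). *C1qa*, a complement subunit that macrophages make, was between 39.7 and 64.8 CPM in VAT and between 55.6 and 93.0 in SAT (-0.61, SE 0.20). The depots overlapped for both, and neither had a slope called. *Timd4*, a receptor of resident macrophages that lymph node macrophages also carry, was at 19.7 to 45.7 CPM in SAT and at most 3.07 in VAT (-3.86, SE 0.30) and rose with the lymph node score. Endothelial genes went the other way, with 9 of 14 higher in VAT and none in SAT (median 0.58), against 23.6% and 22.4% of all genes tested. *Cldn5*, a tight junction protein of capillaries, was at 41.4 to 56.4 CPM in VAT and 16.2 to 25.5 in SAT (1.15, SE 0.17). Of the 14 genes, 6 fell with the lymph node score, and none was called with both scores as covariates or in KO males on chow. With the scores 7.30% of all genes tested were called. In KO males on chow 0.749% were higher in VAT and 0.415% in SAT. In WT males on HFD 5 were higher in SAT and none in VAT (median -1.03). In KO males on HFD the counts were 13 and none (median -1.32). Of 22 complement genes, 4 were higher in VAT and 3 in SAT, against 23.6% and 22.4% of all genes tested. *C6*, of the membrane attack complex, was higher in VAT by 1.16 (SE 0.32) and *Cfp* (properdin) was higher in SAT (-0.89, SE 0.24). Of 6 lymphatic endothelial genes, 2 were higher in VAT and 1 in SAT, against the same shares of all genes tested. The SAT gene, *Prox1*, rose with the lymph node score, and its difference was 0.18 with both scores as covariates.

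**Figure D5:**
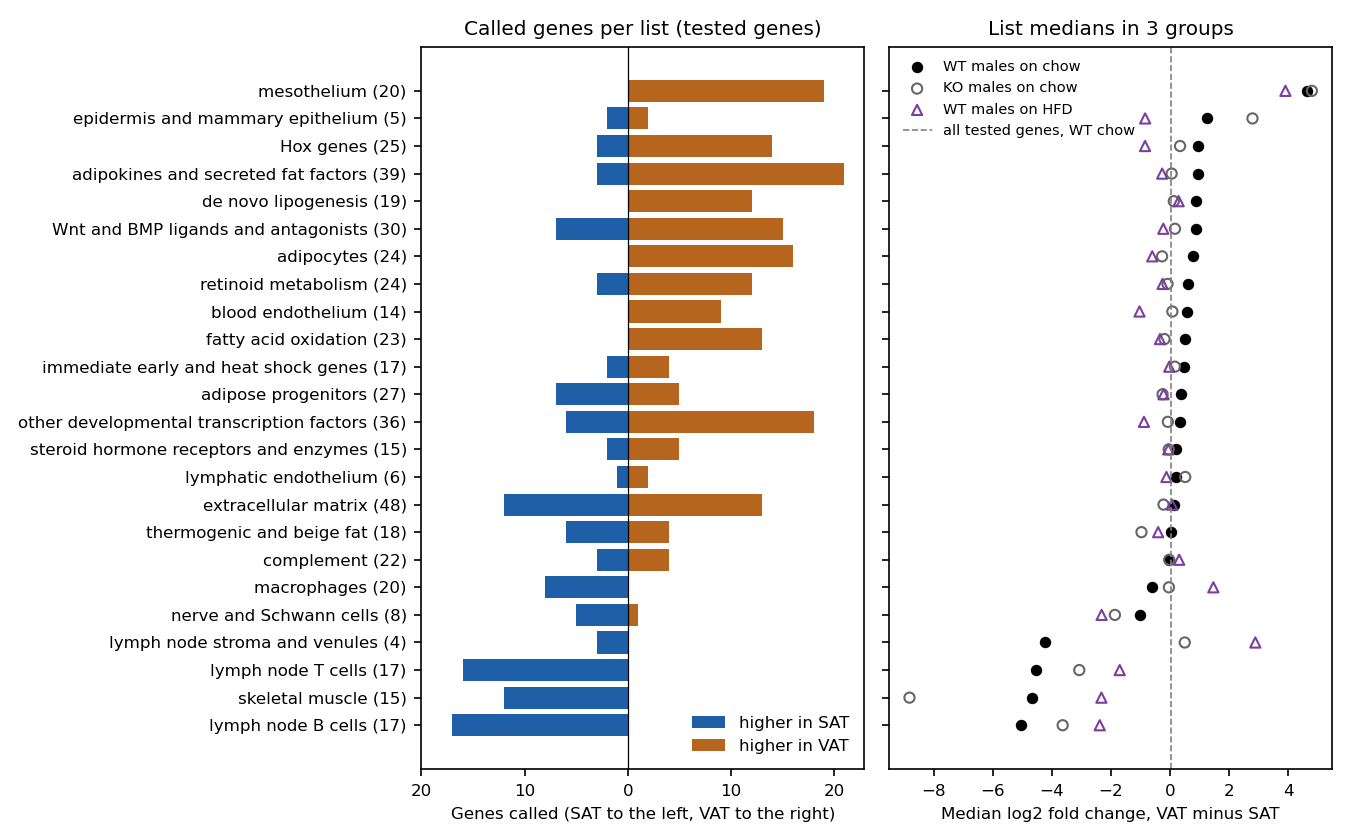
Left, number of called genes in each list, higher in SAT to the left and in VAT to the right, with the number tested in parentheses. Right, median log2 difference (VAT minus SAT) of each list in WT males on chow, KO males on chow and WT males on HFD. The epididymis list (2 genes tested) and the testis list (none tested) are left out, and macrophage genes have a median of -0.60 in WT males on chow and 1.47 in WT males on HFD.

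Genes that rose with the lymph node score were the largest class in SAT. All 17 B cell genes and 16 of 17 T cell genes were higher in SAT without overlap, with medians of -5.04 and -4.53, and so were 3 of 4 genes of lymph node stroma and venules (5 of 6 without VAT replicate 2). *Cr2*, the complement receptor of B cells and follicular dendritic cells, was at 150, 184, 131 and 44.6 CPM in SAT and at 0.279 to 1.23 in VAT (-7.67, SE 0.55). *Cxcl13*, the chemokine that draws B cells into follicles, was at 51.6 to 82.1 CPM in SAT and 2.44 to 12.7 in VAT (-3.56, SE 0.46, and 0.39 with both scores as covariates). SAT replicate 4 was the lowest SAT library for *Cr2* but not for *Cxcl13*. Outside these lists, the genes with the smallest p in this class were *Ms4a4c*, *Ifi214*, *B3gnt5*, *Trim30b*, *Serpina3g* and *Bcl11a*. *Ms4a4c* was at 27.3 to 46.6 CPM in SAT and at most 0.768 in VAT (-6.16, SE 0.24). *Bcl11a*, a transcription factor of B cells, was at 47.0 to 128 CPM in SAT and at most 2.83 in VAT. Of the 2470 genes of this class, 4 were also higher in SAT of KO males on chow, where 67 of all genes tested (0.415%) were higher in SAT, and 109 in WT males on HFD, where 1216 (7.55%) were. The opposite call, higher in VAT, was made for 291 of them in WT males on HFD, where 10.8% of all genes were higher in VAT, and for 827 in KO males on HFD (20.1%).

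Genes that rose with the epididymis score were fewer, and their levels were uneven among the VAT libraries. Of the 57 epididymis genes, 2 had enough reads in enough libraries to be tested, and both were higher in VAT. *Adam7*, a surface protein of the epididymis, was at 19.7, 1795, 0.922 and 5.3 CPM in VAT and had 3 reads in SAT (12.78, SE 3.14, adjusted p = 0.013). It had no test without replicate 2 and a difference of -2.61 with both scores as covariates, of which the epididymis score includes *Adam7* itself. *Lrp2* (megalin), an endocytic receptor of absorptive epithelia, was at 24.2, 250, 31.8 and 54.7 CPM in VAT and at most 0.9 in SAT. Its difference was 7.31 (SE 0.98), and 6.02 (SE 0.39) without replicate 2, so the other 3 libraries also held it. *Lrp2* was higher in VAT in all 5 other groups, by 9.80, 8.11 and 8.28 in the male groups and by 6.70 and 7.18 in females, which have no epididymis. *Prlr*, the prolactin receptor, was at 50, 38, 48.7 and 25.9 CPM in VAT and 6.84 to 7.5 in SAT (2.52, SE 0.21), and replicate 2 was not its highest library. *Rhpn2*, *Baiap2l1*, *Gabra4* and *Ptpn13*, the others with the smallest p, differed by 2.47, 4.67, 4.94 and 1.76, without overlap. Of the 290 genes of this class, 24 were higher in VAT of WT females on HFD (background 3.80%) and 21 in KO females (background 3.31%), while 38 and 36 were higher in SAT (backgrounds 5.16% and 5.24%).

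Skeletal muscle genes were also higher in SAT, 12 of 15 (median -4.67). *Ckm*, the creatine kinase of muscle, was at 27.7, 10, 41.8 and 5.46 CPM in SAT and at most 1.02 in VAT (-5.91, SE 1.01). The summed level of the list, as CPM of the deposited totals, was 374, 195, 582 and 86.7 in SAT against 80.7 to 151 in VAT. SAT replicate 3 was the highest, and replicate 4 overlapped with VAT in this sum. The largest part of the sum in VAT was *Acta1*, at 113, 51.1, 80.2 and 57.9 CPM of the deposited totals. In SAT *Acta1* was at 46.6, 45.1, 75.8 and 24.9. For 11 of the 15 genes tested, every SAT library was above every VAT library. Muscle genes are on no score, and their part in the other SAT genes was not tested. Of 5 epidermal and mammary epithelial genes, 2 were higher in SAT, of which *Dsc3* rose with the lymph node score, and 2 in VAT, *Perp* and *Epcam*, which were high in replicate 2 (35.7 and 65.7 CPM against at most 3.86 in the other VAT libraries) and could not be tested without it. With both scores as covariates the difference of *Epcam* was -0.998. *Krt5* had at most 1 read in each SAT library and *Krt14* at most 2. Of 17 immediate early and heat shock genes, which respond to handling of tissue, 4 were higher in VAT and 2 in SAT. The shares of all genes tested were 23.6% and 22.4%.

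The other 5 groups of mice show how far the pattern holds in libraries that are not shared. KO males on chow gave 121 genes higher in VAT (0.749%) and 67 higher in SAT (0.415%). Of these, 103 (85.1%) and 55 (82.1%) were higher in the same depot in WT males on chow, which is 2.79% and 1.57% of the WT lists. WT males on HFD gave 1732 (10.8%) and 1216 (7.55%), KO males on HFD 3229 (20.1%) and 2771 (17.2%), WT females on HFD 612 (3.80%) and 830 (5.16%), and KO females on HFD 552 (3.31%) and 873 (5.24%). In WT males on HFD, 362 of the 3687 VAT genes were higher in VAT and 405 were higher in SAT. In KO males on HFD the counts were 546 and 1079, in WT females 315 and 109 and in KO females 283 and 106. Of the 3493 SAT genes, 233 were higher in SAT and 427 in VAT in WT males on HFD, 343 and 1042 in KO males on HFD, 191 and 64 in WT females and 180 and 29 in KO females. Genes higher in the same depot in all 6 groups numbered 34 in VAT and 15 in SAT. The VAT genes include *Upk3b*, *Wt1*, *Msln*, *Rspo1*, *Wnt2b*, *Agt*, *Tcf21* and *Lrp2*. The 15 SAT genes, listed after their values were seen, include *Tbx15*, *Lhx8*, *Shox2*, *Cdh19*, *Prx*, *Prdm16*, *Zfhx4*, *Dpt*, *Cxcl14*, *Car8*, *Il1rl2*, *Krt36*, *Pcdh20* and *Rorb*.

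*Tcf21*, a basic helix-loop-helix factor of visceral mesenchyme, was at 1.14 to 2.31 CPM in VAT of WT males on chow with no read in SAT (at least 30-fold). In the other 5 groups its log2 difference ranged from 5.57 to 8.66. That of *Tbx15* ranged from -7.65 to -5.46. *Hoxc10* was lower in VAT of the other males too, with log2 differences of -6.15 in KO on chow and -5.83 in WT on HFD, but in females on HFD its level was 6.30 to 6.82 CPM in VAT of WT mice against 4.77 to 7.05 in SAT (0.08, adjusted p = 0.85). In KO females its level was 6.16 to 8.74 CPM in VAT and 4.86 to 5.37 in SAT, every VAT library above every SAT library (0.47, adjusted p = 0.13). *Hoxa9* and *Hoxa10* likewise differed by 0.48 and 0.33 in WT females, with adjusted p-values of 0.47 and 0.26. *Muc16* reached 19 to 82.2 CPM in SAT of WT females, against at most 0.217 in SAT of WT males on HFD. *Prlr* was reversed, with 122 to 374 CPM in SAT of WT females and 28.0 to 49.2 in their VAT (-2.83, adjusted p = 0.0086). Differences between the sexes were not tested, and no females on chow were studied.

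*Fam13a* itself was at 797, 309, 925 and 414 CPM in VAT and at 322, 350, 276 and 348 CPM in SAT. VAT replicates 1 and 3 were high, as for *Adrb3* and *Car3*, and for *Fam13a* replicates 2 and 4 were within or near the SAT range. The log2 difference was 0.91 (SE 0.32, adjusted p = 0.051), which passes the FDR of 10%, and it was 1.15 (SE 0.25) without VAT replicate 2. In WT males on HFD the direction was opposite (-1.65, adjusted p = 0.010), and the change of the depot difference from chow to HFD was -2.60 (adjusted p = 0.0014).

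The depot difference itself was tested for a change with genotype and diet, in fits that share the 8 libraries described here. Between KO and WT males on chow it differed in 2 of 17442 genes (0.0115%), the small RNA genes *Rny3* and *Snord15a*. That count turns on SAT replicate 4 of KO males, the SAT library of KO mice with the highest lymph node score, and was 3370 without it. DESeq2 called 226 genes. *Snord15a* was at 14.0 to 21.8 CPM in SAT and 0.463 to 1.35 in VAT of WT males, and the ranges of KO males were 2.38 to 8.99 and 2.99 to 4.50. Between HFD and chow in WT males it differed in 6285 of 17475 genes (36.0%), 3213 shifting towards VAT and 3072 towards SAT. 1627 of the 6285 (25.9%) were genes that were higher in SAT on chow and rose with the lymph node score, and 1185 (18.9%) were higher in VAT and fell with it. *Mpeg1*, a pore-forming protein of macrophages, shifted by 3.18 (adjusted p = 0.00049), from 54.8 to 138 CPM in VAT and 137 to 234 in SAT on chow to 293 to 803 in VAT and 95.5 to 132 in SAT on HFD. No lane of a sequencing run held both diets in these libraries, so the part of lane in these shifts cannot be told apart. On HFD, SAT replicate 1 shared lane 4 with VAT replicates 2 to 4, and VAT replicate 1 carries another run code in its title.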

How the data were processed

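Total RNA of mouse fat was sequenced as stranded libraries. Per the labels and the methods, the authors aligned reads with STAR (2.5.3a in the submitters' processing notes) to GRCm38 (mm10) with Gencode M11 and deposited raw counts per gene, without normalization. Which strand column was kept is not given in the sources used here. The table holds 48795 genes, of which 99.1% matched a symbol.

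Libraries were grouped by their labels. The test was edgeR's quasi-likelihood test (edgeR 4.0.16 under R 4.3.3; TMM, filterByExpr, glmQLFit and glmQLFTest, Benjamini-Hochberg FDR of 10%), fitted on the 8 libraries alone. CPM of single genes use TMM library sizes, scaled over these 8 libraries or, for other groups, over all 46, and summed levels of a list use the deposited totals. Adjusted p-values come from these fits over all genes tested. Ratios against a depot without reads use a floor of 3 counts over the 4 libraries, and other pooled ratios have exact 95% intervals. Scores are mean log2 CPM (prior count 2), and slopes were tested in SAT libraries of the other 5 groups (19) or male VAT libraries of the other 3 (12) with group as a covariate. The fits were tested on simulated data.

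The comparison and the 26 gene lists were chosen with earlier results of these data known. Genes named are the 12 per depot with the smallest p among protein-coding genes with a log2 difference of at least 1, no overlap, at least 5 CPM, 1 direction in all groups and no positive slope, at most 6 called genes per list plus defining members, at most 6 per slope class and per interaction test, and Fam13a. Some genes named by this rule are not reported here. Alternatives were DESeq2 1.42.0, limma-voom (limma 3.58.1), other size factors, filters and thresholds, all 46 fat libraries with and without the scores, leaving out the ribosomal RNA gene, and leaving out each library. Promoters and motif shares came from RefSeq tables (Python 3.11.15).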

Additional observations from a re-analysis of the deposited data

Results flagged for a closer look

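VAT replicate 2 stood far from the other 3 VAT libraries for the summed counts of epididymis genes (374729) and for the levels of *Adam7* (1795 CPM), *Teddm2* (786), *Lrp2* (249.8), *Epcam* (65.7), *Hoxd8* (50.6), *Fads2* (47.8), *Perp* (35.7), *Hoxb6* (26.5), *Hoxb9* (23.2), *Hoxb7* (21.9), *Hoxb3* (10.7), *Hoxd4* (9.90) and *Ckm* (1.02). SAT replicate 4 was far from the other SAT libraries for *Mmp2* (226 CPM), *Fap* (43.5) and, at the low end, *B3gnt5* (30.3) and *Cxcr5* (15.3). Others far from their group were SAT replicate 3 for *Hoxa5* (1.65 CPM), *Rhpn2* (1.26) and the summed counts of testis genes (29), SAT replicate 2 for *Rny3* (10.2), SAT replicate 1 for *Hoxa4* (1.08), VAT replicate 1 for *Cd8a* (1.68) and VAT replicate 3 for *Thy1* (5.99) and *Gmpr* (3.23). Chance alone marks about 1 in 20 sets of 4 values in this way.

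The depot difference changed between genotypes on chow in 2 genes, by 2.31 on the log2 scale in *Rny3* (adjusted p = 0.079) and by 3.47 in *Snord15a* (adjusted p = 0.088). It changed between diets in WT males in 6285 genes, by 4.80 in *Snord15a* (adjusted p = 0.00030), from SAT higher on chow to a difference of 0.66 on HFD.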

How the results depend on the processing

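No paired analysis was possible because the labels do not link the VAT and SAT libraries of 1 mouse. Leaving out each library in turn gave 5105 to 8099 depot genes, 2457 to 4122 of them higher in VAT, with the lowest counts without SAT replicate 3 and the highest without SAT replicate 4. The other normalizations, filters, tests and thresholds and the fit of all 46 fat libraries gave 5522 to 8870, within 1.5 times. With TMM factors from genes without a slope, chosen after seeing the data, 43.2% of calls were higher in VAT in place of 51.4%.

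With both scores as covariates over 46 libraries, 1450 genes were called, 814 higher in VAT and 636 in SAT. Of these 210, 239 and 14 had been higher in SAT and rose with the lymph node score, higher in VAT and fell with it, or higher in VAT and rose with the epididymis score. Among 186 named genes, 80 kept direction and call there, 82 lost the call, and 24 changed sign: *Lep* (-0.12), *Gmpr* (-0.18), *Fads2* (-0.15), *Hsd17b7* (-0.24), *Fkbp5* (-0.031), *Prox1* (0.18), *Pax5* (0.64), *Cxcr5* (1.09), *Ms4a1* (1.46), *Cd4* (0.16), *Cd8a* (0.17), *Cxcl13* (0.39), *Adam7* (-2.61), *Teddm2* (-0.019), *Epcam* (-0.998), *Acta1* (-0.66), *Hoxd9* (-0.30), *Hoxd4* (-0.14), *Hoxb7* (-0.69), *Hoxb6* (-1.05), *Hoxb5* (-0.088), *Hoxb4* (-0.22), *Hoxb3* (-0.36) and *Hoxb2* (-0.0097). *Pax5*, *Cxcr5*, *Ms4a1*, *Cd4* and *Cd8a* are part of the lymph node score, and *Adam7* and *Teddm2* of the epididymis score. Each was thus adjusted for a mean that includes it, which takes away its difference by construction. *Hoxb7* also changed sign without VAT replicate 2 (range -0.081 to 2.25 over libraries left out). The cause was not tested.

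Genes rising with the lymph node score numbered 2014 to 3951 without 1 of the 3 leading libraries, and those rising with the epididymis score 0 to 1074 without 1 of 2 (0 without VAT replicate 1 of KO males on chow). Depot genes of KO males on chow numbered 79 with no filter, 571 by DESeq2 and 120 at an FDR of 5%. Those of WT males on HFD numbered 1167 with no filter and 1613 at 5%, of WT females 822 at 5%, and of KO females 2184 by DESeq2 and 846 at 5%. edgeR's genotype interaction gave 0 genes with no filter (3562 at an unadjusted p under 0.05) and 0 at 5% (2752), DESeq2's gave 226, and edgeR's gave 0 to 3370 without each library, the highest without SAT replicate 4 of KO males. Low depth limits genes under about 1 CPM, such as *Ucp1*.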
